A study of Drosophila melanogaster with 24 samples.

Results

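The 6 genes described here are CG17298 (FBgn0038879), CG13606 (FBgn0039161), CG14565 (FBgn0037129), CG34205 (FBgn0085234), CG34166 (FBgn0085195) and CG13962 (FBgn0032824) of Drosophila melanogaster. They were chosen from the 12024 genes of the deposited RNA-Seq table as uncharacterised genes that followed the cold history of the flies, and their values in the cold and control groups had a part in that choice. All 6 passed the filter on low values, as did 11314 genes in all. The table holds 4971 other genes whose symbol is only CG and digits.

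Whole males 0 to 16 h old were taken from 2 generations of isogenic w1118 flies (w1118iso/Dp(1;Y)y+iso;2iso;3iso), with 20 males in each RNA-Seq library. F1-18 flies were reared at 18 °C and F1-25 flies at 25 °C. F2 flies hatched from washed eggs that F1 flies had laid at 18 or 25 °C, on food on which F1 males from 18 or 25 °C had left their faeces, and every F2 fly was then reared at 25 °C. Both sources were cold-treated flies in F2-18-18 and control flies in F2-25-25, while F2-25-18 and F2-18-25 each combined a cold-treated with a control source. An F2 group thus differs from another in the temperature of its parents and of its first hours as an egg when the germline source differs, and in the donors of faeces when the microbiome source differs.

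For the crossed groups the sources of information conflict. In the sample descriptions the first temperature of a library name belongs to the germline and the second to the microbiome, so that F2-25-18 has the germline of control flies and the microbiome of cold-treated flies. The read-count list of the study orders the same names the other way, with the microbiome first. So does its list of bacteria in F2 flies, where F2-18-25 are offspring of F1-25 flies given the F1-18 microbiome. The replicates present also match that order. The read-count list has A to D for the 18 °C microbiome with the 25 °C germline, and only A, B and D for the reverse, as do F2-18-25 and F2-25-18 here. The sample titles of the crossed groups give both temperatures in the opposite order to the library names. Because the sample descriptions differ from the study's lists, the groups are called by their library names. Effects are given for the temperature named first and for the one named second. In the order of the study's lists these are the microbiome and the germline. The comparison of F2-25-18 with F2-18-25 has the same value under both readings, since both sources differ in it.

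Values were present for 22 of 24 samples, with 4 libraries in F1-18, 3 in F1-25, 4 in F2-18-18, 3 in F2-25-18, 4 in F2-18-25 and 4 in F2-25-25. Replicate C of F1-25 and of F2-25-18 was not analysed here. In F2-25-25, both C and D differed from the average of A and B by exactly a whole number in 7150 genes (59.5%), and these values were treated as missing. This held for 5 of the 6 genes, and their F2-25-25 values are those of replicates A and B alone. CG34205 had 4 separate values in F2-25-25. The number of reads behind 21 libraries could be recovered from the steps between low values and lay between 2152214 and 6960633. Of these 21 totals, 14 lay within 0.2% of a total in the study's read-count list, 2 under the library's own name, 4 under another name of the same group and 8 under a name of another group. The names of the deposited table are kept here, and every group difference rests on them.

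A gene symbol of CG and digits is the identifier that the fly genome annotation gives to a predicted gene, and it says nothing about function. Young adult males are still hardening and tanning their cuticle, using up storage proteins from the larva and filling their accessory glands. Cuticle is a layer of chitin and protein that is cross-linked by products of tyrosine. Larval serum proteins are storage proteins that the larval fat body secretes, and the accessory gland makes the seminal fluid proteins that are transferred at mating.

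All 6 genes are annotated as protein coding on Release 6 of the fly genome. CG17298 lies on chromosome 3R from 21283197 to 21284050 on the plus strand and encodes 95 residues. CG13606 lies on 3R from 24172628 to 24184144 on the plus strand, with 4 transcripts for proteins of 94 to 134 residues. CG14565 has 1 exon on 3L from 21743248 to 21744269 on the minus strand and encodes 269 residues. CG34205 lies on 2R from 22130112 to 22131299 on the minus strand and encodes 217 residues. Both other genes are on 2L, CG34166 from 14743193 to 14743879 on the plus strand with 82 residues and CG13962 from 19813704 to 19814532 on the minus strand with 152 residues. The longest proteins of all 6 genes are shorter than 434 residues, which is the median over the 11177 protein-coding genes tested. Genes on the opposite strand overlap CG17298 (SIFaR), CG34205 (NtR) and CG13962 (sick). The authors counted reads by strand.

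The genes differed widely in level. Per kilobase of exon, the mean value was 2222 for CG34166, 638.3 for CG17298, 247.6 for CG13606, 132.5 for CG13962, 75.2 for CG14565 and 25.0 for CG34205, against a median of 49.6 over the 11180 genes tested with a length. CG34166 thus stood at percentile 99.2 of all genes by this measure and CG34205 at percentile 28.7.

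**Figure D1:**
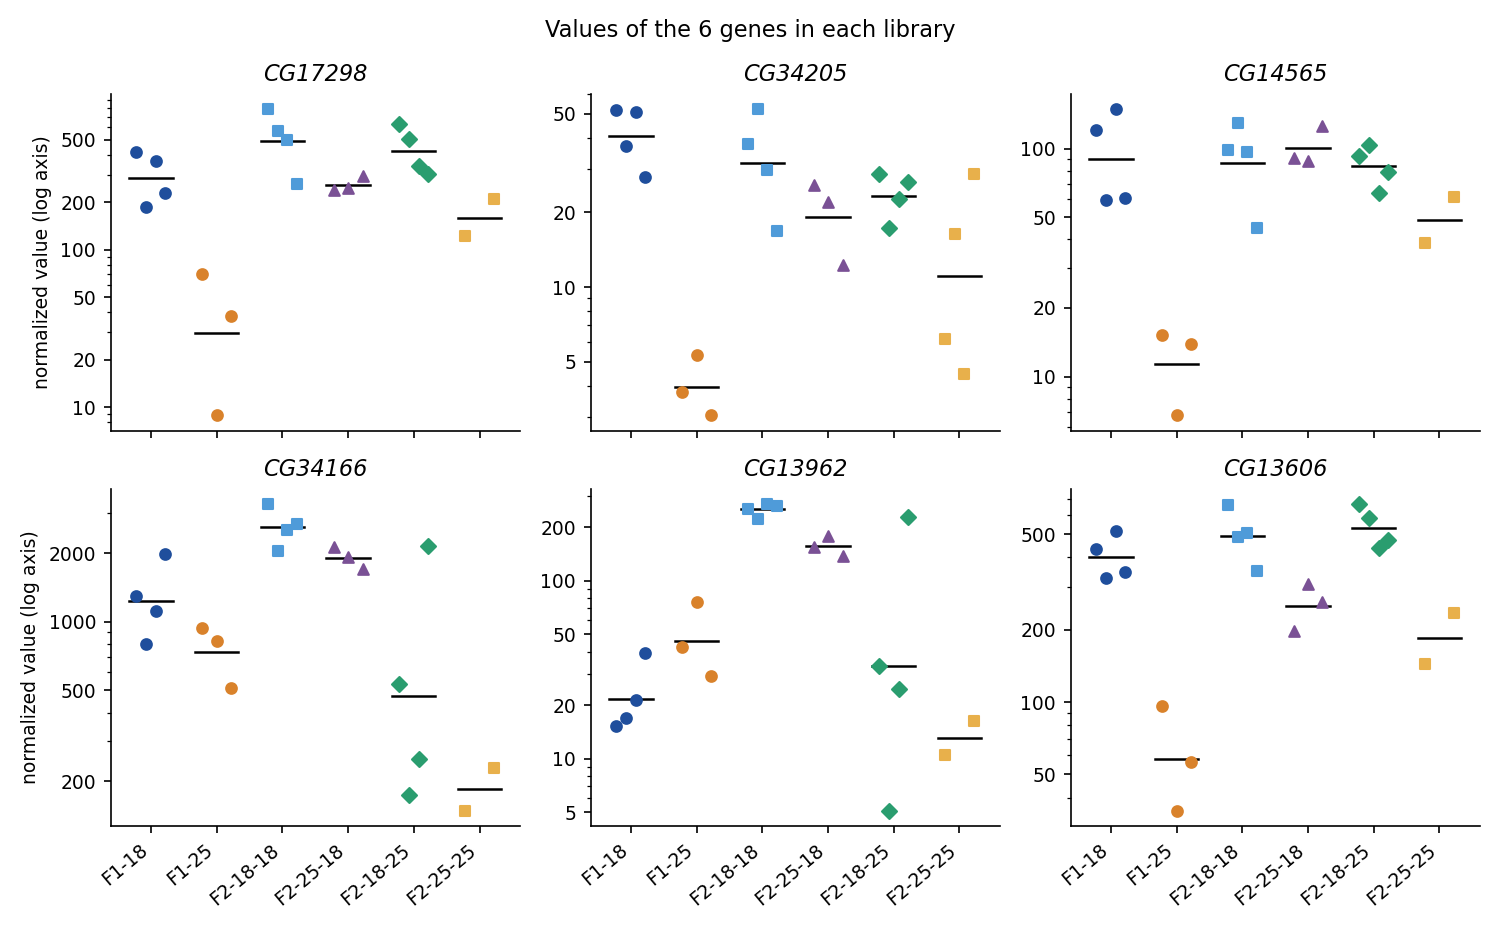
Normalized values of the 6 genes on log axes, with 1 point per library and a line at the mean of log2(value + 2) for each group on the axis of each panel. CG17298, CG13606, CG14565 and CG34205 are lowest in F1-25, while CG34166 and CG13962 are highest in F2-18-18 and fall apart within F2-18-25, where 1 library is at 2151 and 227.2.

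CG34166 was the most abundant of the 6 genes and was highest in the F2 groups whose second-named temperature is 18 °C. Its normalized value was 3279, 2047, 2515 and 2684 in F2-18-18, against 148.3 and 229.6 in F2-25-25. In the crossed groups it was 2133, 1916 and 1707 in F2-25-18, against 533.3, 173.5, 249.5 and 2151 in F2-18-25. Replicate D of F2-18-25 thus lay above all libraries of F2-25-18, while the other 3 lay below all of them. In the F1 generation the gene had 1299, 800.7, 1114 and 1991 in F1-18, against 940.8, 820.9 and 514.6 in F1-25, and the groups overlapped.

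CG13962 followed the same order in the F2 generation at a lower level. Its normalized value was 252.9, 223.0, 269.1 and 264.3 in F2-18-18, against 10.4 and 16.4 in F2-25-25. It was 155.4, 177.6 and 137.2 in F2-25-18, against 33.1, 5.11, 24.7 and 227.2 in F2-18-25, and replicate D was again the only library of F2-18-25 above F2-25-18. In the F1 generation the means had the opposite order to that in F2, with 15.4, 17.1, 21.3 and 39.4 in F1-18, against 42.6, 76.1 and 29.3 in F1-25. These F1 groups overlapped. The lowest value, in replicate B of F2-18-25, corresponds to 7 reads.

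CG17298 was lowest in F1-25 and rested there on few reads. Its normalized value was 417.1, 186.6, 366.5 and 227.9 in F1-18, against 70.0, 8.84 and 38.1 in F1-25, and the lowest of these corresponds to 11 reads. In the F2 generation it was 786.1, 571.1, 497.8 and 262.7 in F2-18-18, against 121.5 and 209.9 in F2-25-25. In the crossed groups it was 238.7, 246.1 and 292.8 in F2-25-18, against 627.6, 507.9, 339.1 and 302.5 in F2-18-25. The groups did not overlap in any of these 3 pairs.

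CG13606 had the same order of groups as CG17298, except that F2-18-25 stood above F2-18-18. Its normalized value was 434.2, 330.1, 516.2 and 346.5 in F1-18, against 96.5, 35.2 and 56.3 in F1-25. It was 663.8, 488.8, 507.0 and 351.3 in F2-18-18, against 144.7 and 236.0 in F2-25-25. In the crossed groups it was 197.4, 309.6 and 262.2 in F2-25-18, against 667.2, 584.3, 436.3 and 472.3 in F2-18-25. None of the 3 pairs of groups overlapped.

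CG14565 separated the F1 groups and differed less between those of the F2 generation. Its normalized value was 120.3, 59.2, 149.3 and 60.4 in F1-18, against 15.2, 6.76 and 13.8 in F1-25. It was 98.8, 129.4, 96.1 and 45.0 in F2-18-18, against 38.5 and 61.4 in F2-25-25, and these groups overlapped. The crossed groups overlapped as well, with 91.3, 88.2 and 125.1 in F2-25-18, against 92.8, 103.3, 64.1 and 78.9 in F2-18-25.

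CG34205 had the lowest mean of the 6 genes over all libraries, although CG13962 was lower on average in F1-18 and F2-25-25. Its normalized value was 52.0, 37.1, 50.8 and 27.9 in F1-18, against 3.75, 5.32 and 3.03 in F1-25, where the 3 libraries held 2, 6 and 5 reads of the gene. In the F2 generation it was 37.7, 52.4, 29.8 and 16.9 in F2-18-18, against 6.15, 16.4, 4.46 and 28.6 in F2-25-25. It was 25.8, 22.1 and 12.3 in F2-25-18, against 28.7, 17.3, 22.7 and 26.4 in F2-18-25, so that both pairs of F2 groups overlapped. The overlap of F2-18-18 with F2-25-25 came from replicate D of F2-25-25 alone.

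The difference between the cold and the control group of each generation had a part in choosing the genes and is given without a test. Differences are those of the group means of log2(value + 2), with the standard error (SE) of the fit, and come out too small for genes at low values. For F1-18 against F1-25 the log2 difference was 3.18 (SE 0.46) for CG17298, 2.84 (SE 0.42) for CG34205, 2.78 (SE 0.34) for CG14565 and 2.75 (SE 0.27) for CG13606. It was 0.74 (SE 0.52) for CG34166 and -1.01 (SE 0.66) for CG13962. For F2-18-18 against F2-25-25 CG13962 and CG34166, the lowest 2 in F1, were the highest, with 4.07 (SE 0.75) for CG13962 and 3.80 (SE 0.59) for CG34166, against 1.61 (SE 0.52) for CG17298, 1.40 (SE 0.30) for CG13606, 1.36 (SE 0.38) for CG34205 and 0.80 (SE 0.38) for CG14565. Leaving out 1 library moved some of these values. In F1 the log2 difference of CG17298 was 2.41 without replicate B and 3.78 without replicate A of F1-25, that of CG13962 was -0.65 without replicate B of F1-25, and that of CG34166 was 0.49 without replicate D of F1-25. In F2 that of CG14565 was 0.48 without replicate A of F2-25-25. For CG34205 it was 1.02 without replicate C and 1.77 without replicate D of F2-25-25. The libraries did not overlap and were higher in F1-18 for 4 of the 6 genes, where 11.1% of all genes tested were so, and higher in F2-18-18 for 4 of the 6, where 13.5% were so. Nothing is read from these shares, because the genes were chosen on such differences.

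CG13962 was thus lower on average in F1-18 than in F1-25, although the groups overlapped. In F1 it does not follow the name under which the 6 genes were put together. CG34166 follows that name in F1 only within the spread of the F1 groups. Between the generations CG13962 also differed most among the cold groups. Its log2 difference between F2-18-18 and F1-18 was 3.42 (SE 0.61), against 1.07 (SE 0.48) for CG34166, 0.79 (SE 0.42) for CG17298, 0.29 (SE 0.25) for CG13606, -0.05 (SE 0.31) for CG14565 and -0.34 (SE 0.38) for CG34205. Among the control groups, F2-25-25 minus F1-25, it was 2.36 (SE 0.55) for CG17298, 1.92 (SE 0.41) for CG14565, 1.64 (SE 0.32) for CG13606 and 1.14 (SE 0.42) for CG34205, and -1.98 (SE 0.63) for CG34166 and -1.66 (SE 0.79) for CG13962. The first 4 genes were therefore higher in the second control generation than in the first one, and the other 2 were lower, although both control generations were reared at 25 °C. Only 2 libraries stand behind F2-25-25 for all of these genes except CG34205.

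The crossed groups give the comparison that shares no library with those of cold and control groups. CG34166 and CG13962 were higher in F2-25-18 than in F2-18-25 and CG13606 was lower, while CG17298, CG14565 and CG34205 did not pass the test. The log2 difference was 2.01 (SE 0.52, limma, adjusted p = 0.0197) for CG34166 and 2.17 (SE 0.66, limma, adjusted p = 0.0377) for CG13962. It was -1.07 (SE 0.27, limma, adjusted p = 0.0165) for CG13606. Of the genes tested, 12.4% passed in either direction, 7.51% as higher (850 genes) and 4.85% as lower (549 genes). With values scaled to equal library totals 508 genes were called higher and 1568 lower, and with 1 library left out 221 to 1493 genes passed in all. The median log2 difference was 0.0046 over all genes and -0.00027 over the 6 genes. Values of these libraries were known when the genes were put together, and it is not known which comparison brought in CG13606, so these p-values are no independent support.

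Replicate D of F2-18-25 lay against the direction of the other libraries in CG34166 and CG13962. Without replicate D of F2-18-25 the log2 difference was 2.74 (limma, adjusted p = 2.34e-05) for CG34166 and 3.07 (limma, adjusted p = 1.05e-04) for CG13962. With that library kept, CG34166 no longer passed without any 1 library of F2-25-18 or without replicate B or C of F2-18-25 (limma, adjusted p 0.0501 to 0.0731), and CG13962 no longer passed without any 1 of the other 6 libraries (0.0706 to 0.112), with a log2 difference of only 1.40 without replicate B of F2-18-25. CG13962 also did not pass with the replicate letter as a block (limma, adjusted p = 0.0616), without the trend of the variance (0.0634) or when only these 7 libraries entered the fit (0.0583). CG13606 no longer passed without replicate A (0.0750) or D (0.0684) of F2-25-18.

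CG13606 and CG17298, 2 of the 6 genes, were lower in F2-25-18 with no overlap between the groups, as were 14.7% of all genes tested. For CG13606 an exact two-sided permutation test over the 3 and 4 libraries gave p = 0.0571, the smallest value that design allows. For CG34166 and CG13962 the same exact permutation test gave p = 0.229 each.

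**Figure D2:**
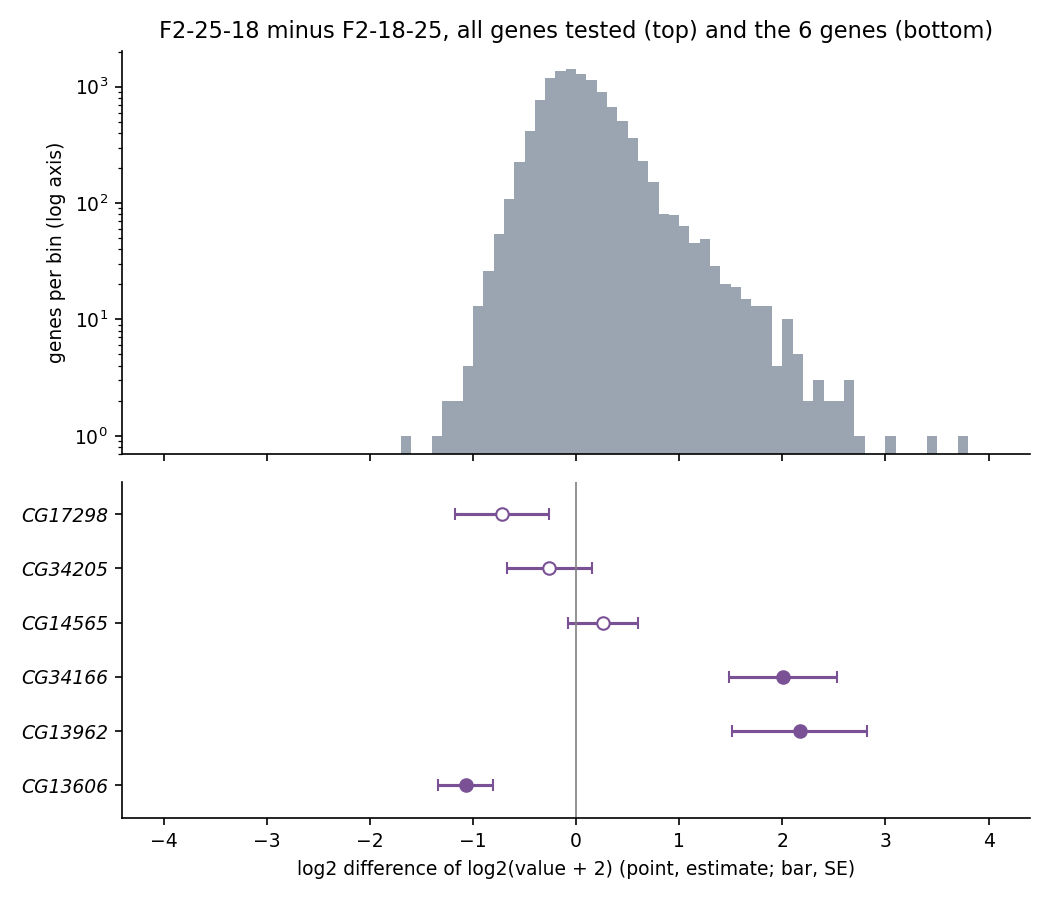
Log2 difference of F2-25-18 minus F2-18-25 on the horizontal axis. The upper panel counts genes per bin of all 11314 genes on a log axis, and the lower panel shows the estimate and SE of each of the 6 genes, filled where the adjusted p is under 0.05. CG34166 at 2.01 and CG13962 at 2.17 lie in the upper tail of all genes, and CG13606 at -1.07 lies in the lower one.

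The other 3 genes differed less between the crossed groups. CG17298 was lower in F2-25-18 in each library than in any of F2-18-25, with a log2 difference of -0.72 (SE 0.46, limma, adjusted p = 0.305) and an exact two-sided permutation p of 0.0571. When only these 7 libraries entered the fit, its SE was 0.20 and its adjusted p 0.0231, the spread then being that of these libraries alone. CG34205 had a log2 difference of -0.26 (SE 0.42, limma, adjusted p = 0.707) and CG14565 one of 0.26 (SE 0.34, limma, adjusted p = 0.639). These errors allow differences of either sign.

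Split by source, the estimates of the 6 genes fell on either side of equal effects of both named temperatures, for CG34205 and CG14565 within their errors. The effect of the temperature named first, as the mean log2 difference of 18 minus 25 °C over both levels of the second, was 1.24 (SE 0.20) for CG13606 and 1.16 (SE 0.35) for CG17298. That of the temperature named second was 0.16 (SE 0.20) for CG13606 and 0.45 (SE 0.35) for CG17298. CG34166 and CG13962 had the reverse, with 0.89 (SE 0.40) and 0.95 (SE 0.50) for the first and 2.90 (SE 0.40) and 3.12 (SE 0.50) for the second. CG34205 had 0.81 (SE 0.28) for the first and 0.55 (SE 0.28) for the second, and CG14565 had 0.27 (SE 0.26) and 0.53 (SE 0.26). For CG14565 these means cover unequal steps. The effect of its first-named temperature was -0.21 with the second at 18 °C and 0.75 with the second at 25 °C. These differ by -0.96 (SE 0.51). For the other genes this difference was also negative, from -0.91 (SE 0.79) for CG34166 to -0.28 (SE 0.57) for CG34205. All of these differences use F2-25-25. The effect of the first-named minus that of the second-named temperature of a gene is the comparison of the crossed groups above. No other test was run on these effects because F2-18-18 and F2-25-25 had a part in choosing the genes. Without replicate D of F2-18-25, an alternative chosen after the data had been seen, the effect of the second-named temperature was 3.27 for CG34166 and 3.57 for CG13962, and that of the first-named was 0.53 and 0.50.

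**Figure D3:**
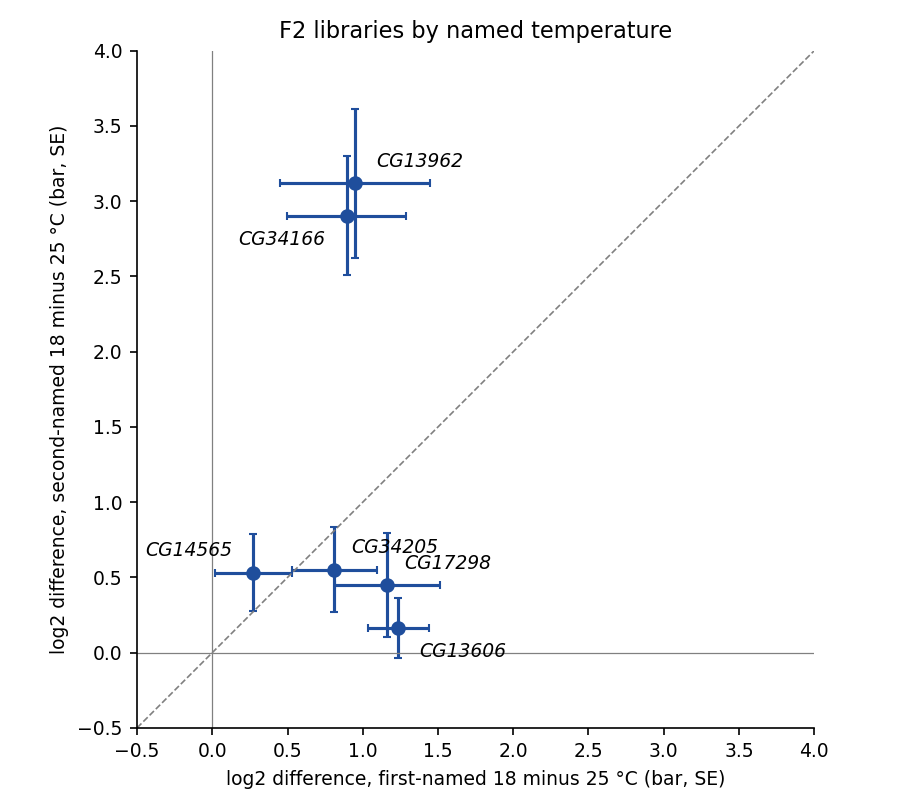
Effect of the temperature named first in the F2 library names on the horizontal axis and of the one named second on the vertical axis, as log2 differences of 18 minus 25 °C with SE bars. The dashed line marks equal effects. CG34166 and CG13962 lie above it at 2.90 and 3.12 on the vertical axis, while CG13606 and CG17298 lie below it.

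From library to library the genes also fell into 2 sets, with CG14565 beside CG17298 and CG13606. In the split by source the side of CG14565 was not settled, with a crossed difference of 0.26 (SE 0.34). Over the 20 libraries other than replicates C and D of F2-25-25, Pearson's r of log2(value + 2) was 0.97 between CG17298 and CG13606, 0.92 between CG17298 and CG14565 and 0.89 between CG14565 and CG13606. It was 0.84 between CG34166 and CG13962, and 0.11 to 0.25 between either of these and any of CG17298, CG13606 and CG14565. CG34205 had 0.79 to 0.84 with the first 3 genes and 0.41 and 0.17 with CG34166 and CG13962. Libraries share their normalization and the group differences that chose the genes, so these values are a description.

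Within groups, where the differences that chose the genes are removed, r was 0.91 between CG17298 and CG13606, 0.81 between CG17298 and CG14565 and 0.92 between CG34166 and CG13962. CG34205 kept no close partner, with a highest value of 0.48, which was with CG14565. Its counts were low, and a weak correlation says little at that depth. Between CG34166 or CG13962 and any of CG17298, CG13606 and CG14565, r within groups was -0.33 to 0.04, or -0.37 to 0.25 without replicate D of F2-18-25. Replicates thus deviated together within each set and much less between the sets. Without replicate D of F2-18-25, r between CG34166 and CG13962 was 0.83 over libraries and 0.77 within groups, both being alternatives chosen after the data had been seen.

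**Figure D4:**
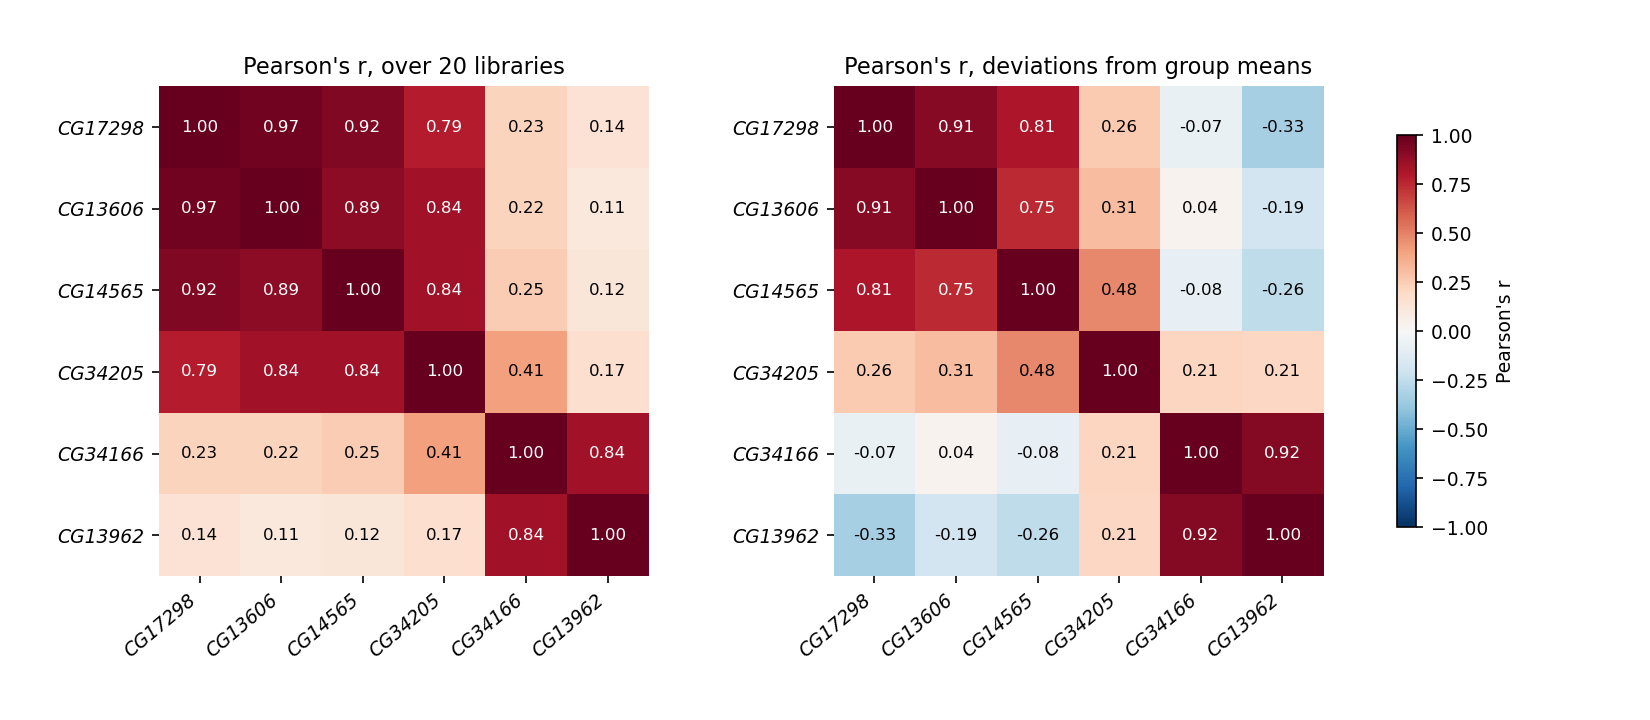
Pearson's r between the 6 genes over 20 libraries (left) and between their deviations from group means (right), on a colour scale from -1 to 1. CG17298, CG13606 and CG14565 form one block in both panels and CG34166 and CG13962 another, while CG34205 joins the first block only on the left.

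CG34166 was closest to the genes of larval serum proteins. Of all genes tested, those with the highest r over the 20 libraries were Lsp2 (0.98) and Lsp1beta (0.98), both storage proteins of the larval fat body, and Cpr49Ac (0.98), a cuticle protein with a chitin-binding domain. Within groups these values were 0.96, 0.95 and 0.95. The gene had an r over 0.9 with 71 genes, and CG13962, the nearest of the other 5 genes, ranked at place 125. Without replicate D of F2-18-25, r within groups was 0.88 for Lsp2, 0.86 for Lsp1beta and 0.88 for Cpr49Ac. In the crossed comparison the log2 difference was 1.63 (limma, adjusted p = 0.0336) for Lsp2, 1.45 (limma, adjusted p = 0.0591) for Lsp1beta and 1.41 (limma, adjusted p = 0.0418) for Cpr49Ac.

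The 4 larval serum protein genes together followed CG34166 through all groups, F2-18-25 included. Their summed value was 47937 to 61381 in F2-18-18, against 6026 and 6031 in F2-25-25. It was 37564, 42261 and 33257 in F2-25-18, against 10752, 4857, 8311 and 54018 in F2-18-25, where the highest value is again that of replicate D. In the F1 generation it was 22277 to 43455 in F1-18, against 13194 to 28006 in F1-25. Of the 4 genes, 3 were called higher in F2-25-18 than in F2-18-25 and none lower, with a median log2 difference of 1.57. Of all genes tested, 7.51% were called higher and 4.85% lower. With the summed value, r was 0.98 for CG34166 and 0.80 for CG13962 over the 20 libraries, and 0.96 and 0.93 within groups. Without replicate D of F2-18-25 these values within groups were 0.87 and 0.79. The part of larval fat body RNA in the values of both genes was not tested. In RNA of whole flies, fewer cells of a type and less RNA per cell cannot be told apart.

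CG13962 was closest to Hsp23, which encodes a small heat shock protein, with an r of 0.96 over libraries and 0.93 within groups (0.78 without replicate D of F2-18-25). The next were CG31636 with 0.93 and TBC1D5, which has the domain of proteins that switch off Rab GTPases, with 0.92. Within groups TBC1D5 had 0.77, and 0.28 without replicate D of F2-18-25, while CG31636 had 0.78 and 0.50. Hsp23 had a log2 difference of 1.54 (limma, adjusted p = 0.0158) in the crossed comparison, CG31636 one of 0.76 (limma, adjusted p = 0.0693) and TBC1D5 one of 0.49 (limma, adjusted p = 0.0309). Only 4 genes had an r over 0.9 with CG13962, and CG34166 ranked at place 27. CG13962 thus shared the F2 pattern of CG34166 and differed from it in F1. There its group means had the opposite order, although the F1 groups overlapped for both genes.

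**Figure D5:**
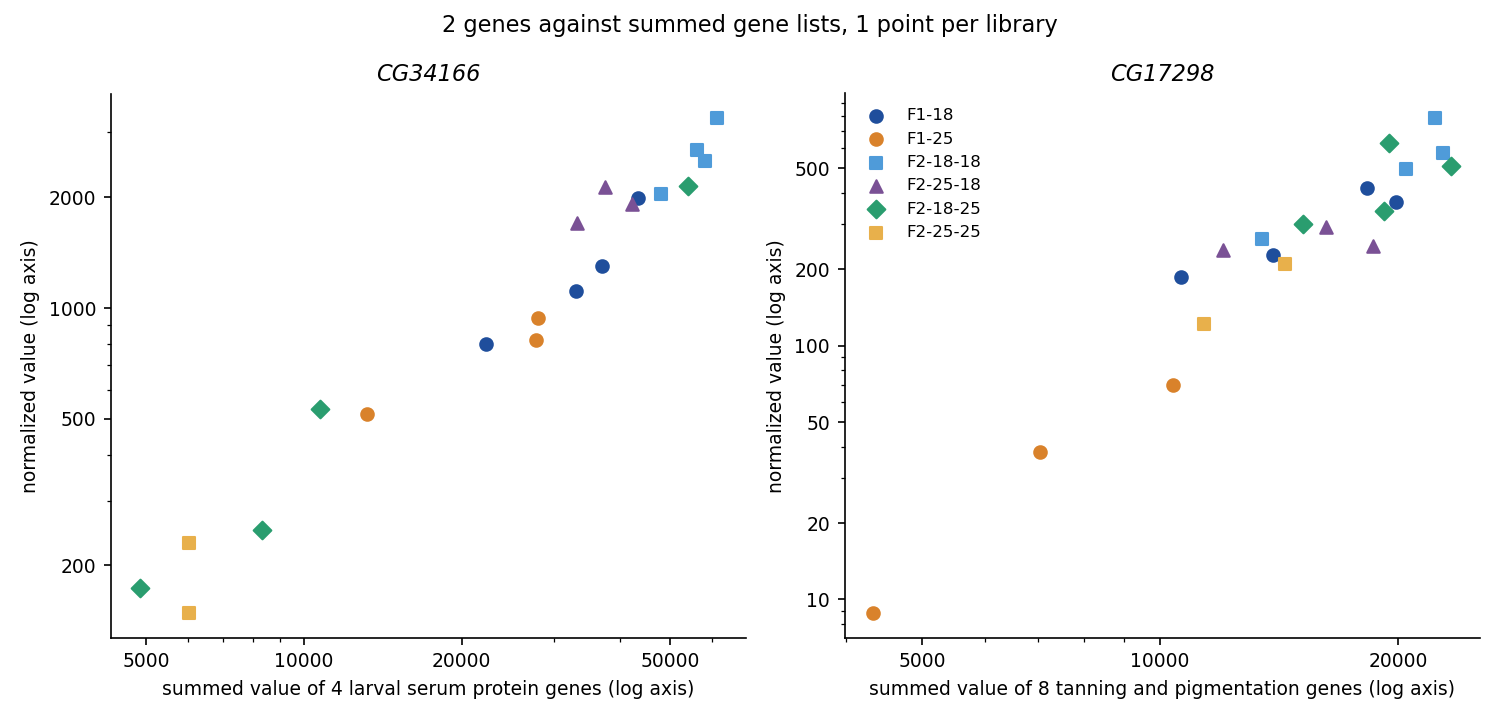
CG34166 against the summed value of the 4 larval serum protein genes (left) and CG17298 against the summed value of 8 tanning and pigmentation genes (right), with 1 point per library and log axes. Replicate D of F2-18-25, at 54018 and 2151 on the left, lies among the F2-18-18 libraries, and the 3 F1-25 libraries are the lowest for CG17298 on the right.

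CG17298 was closest to CG6739 (r 0.97 over libraries), CG13606 (0.97) and Cpr100A (0.96), a cuticle protein gene. CG13606 was closest to CG17298 (0.97), CG34196 (0.96) and CG13722 (0.95). An r over 0.9 was found with 50 genes for CG17298 and with 35 for CG13606. In the crossed comparison CG13722 was lower in F2-25-18 by a log2 difference of -0.88 (limma, adjusted p = 0.0249). CG6739 had -0.03 (limma, adjusted p = 0.896), Cpr100A had -0.33 (limma, adjusted p = 0.170) and CG34196 had -0.74 (limma, adjusted p = 0.246).

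CG14565 was closest to CG13065 (r 0.98 over libraries and 0.95 within groups), to CG14572 (0.95 and 0.86) and to verm (0.94 and 0.85), which encodes a chitin deacetylase. It had an r over 0.9 with 51 genes, and CG17298, the nearest of the other 5 genes, ranked at place 23. CG14572 is also its neighbour on the chromosome, 806 bases away on the other strand. None of these 3 genes passed the test in the crossed comparison, where their adjusted p was 0.431 for CG13065, 0.792 for CG14572 and 0.984 for verm (limma). CG34205 was closest to CG7443 (0.92), to mys (0.90), which encodes a beta subunit of integrin, and to CG16772 (0.89), and its r was over 0.9 with only 1 gene. Within groups its values with these genes were 0.56 to 0.57.

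The 14 tested genes that overlap a gene of the set or are next to it in the table had an r with it from -0.47 to 0.95, with a median of 0.05. CG42587, 965 bases from CG34166, had 0.83 at a mean value of only 6.47, and fs(2)ltoPP43, next to CG13962, had 0.63. The overlapping genes had 0.12 (SIFaR with CG17298), 0.42 (NtR with CG34205) and -0.47 (sick with CG13962). Of the 14 genes, 2 passed the test in the crossed comparison, as did 12.4% of all genes tested, and nothing is read from this count. They were NtR with a log2 difference of 0.98 (limma, adjusted p = 0.0411) and CG3301, next to CG17298, with 0.47 (limma, adjusted p = 0.0494). Their partners CG34205 and CG17298 had values below 0.

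The summed value of the genes of cuticle tanning and pigmentation varied with CG17298, CG13606 and CG14565. Of the 10 genes listed, 8 were in the table, and 81.5% of their summed value came from ple, the tyrosine hydroxylase gene, and e (ebony). With their summed value, r was 0.96 for CG17298, 0.93 for CG13606 and 0.90 for CG14565, 0.72 for CG34205 and 0.15 and 0.09 for CG34166 and CG13962. Within groups it was 0.88, 0.89 and 0.81 for the first 3 genes. Gene by gene, r with CG17298 over libraries was highest for ple (0.96) and e (0.95), while t (tan) had 0.16 and y (yellow) -0.66, and the median of the 8 genes was 0.78. With CG13606 and CG14565, y had -0.63 and -0.58. The summed value was 10612 to 19869 in F1-18, against 4337 to 10387 in F1-25, and 13454 to 22786 in F2-18-18, against 11360 and 14398 in F2-25-25. None of the 8 genes passed the test in the crossed comparison (limma, 1 at an unadjusted p under 0.05), with a median log2 difference of 0.07. The log2 difference was -0.38 (limma, adjusted p = 0.458) for ple and -0.49 (limma, adjusted p = 0.284) for e, while y had 1.60 (limma, adjusted p = 0.136).

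The summed value of the cuticle protein genes followed these 3 genes less closely by r than that of the tanning genes, a difference that was not tested. Of 54 such genes 38 were tested, and 4 were called higher and 2 lower in F2-25-18 than in F2-18-25, with a median log2 difference of 0.11. Their summed value had an r of 0.07 with CG17298, 0.13 with CG13606 and 0.09 with CG14565, and 0.03, 0.0049 and -0.08 within groups. With CG34166 it had 0.54 over libraries and 0.05 within groups. The sum does not describe each member. Cpr100A had 0.96 over libraries and 0.83 within groups with CG17298, and Cpr49Ac had 0.98 and 0.95 with CG34166. Both were named above as closest genes, and r of the other cuticle genes is not reported here gene by gene. The 2 most abundant, Cpr100A and Cpr97Eb, had log2 differences of -0.33 and -0.18 (limma, adjusted p = 0.170 and 0.642). Of the 4569 other uncharacterised genes tested, 258 were called higher and 269 lower, with a median of -0.02. In the same comparison 7.51% of all genes tested were called higher and 4.85% lower. Nothing is read from the counts of either list.

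Markers of the accessory gland ran opposite to CG17298, CG13606, CG14565 and CG34205. The 5 accessory gland genes summed to 4128 to 6400 in F1-18, against 9148 to 10376 in F1-25, without overlap. In the F2 generation they summed to 4540 to 6388 in F2-18-18, against 6035 and 6172 in F2-25-25, and these groups overlapped. Their r over libraries was -0.84 with CG17298, -0.84 with CG13606, -0.91 with CG14565 and -0.88 with CG34205, and -0.59 to -0.20 within groups. With CG34166 and CG13962 it was -0.20 and -0.05. Acp36DE weighs most in the sum, with a mean value of 4006, against 712.6 for Acp53Ea, the next highest. Gene by gene, r over libraries with CG17298, CG13606, CG14565 and CG34205 was -0.93 to -0.50. Within groups it was -0.62 to 0.05, and SP gave the highest value in both cases. Of the 5 genes, none passed the test between the crossed groups (limma, 0 at an unadjusted p under 0.05), where their sums were 5071 to 6333 in F2-25-18, against 5199 to 5764 in F2-18-25. The testis genes summed to 4261 to 4461 in F1-18, against 5121 to 5202 in F1-25, and 2 of 5 were lower in F2-25-18 than in F2-18-25. Their sum had an r of -0.76 with CG34166 and -0.59 with CG13962, and -0.65 and -0.57 within groups. Without replicate D of F2-18-25 the values within groups were only -0.15 and 0.05, so they rest on that library. The eye genes had 1 of 5 lower and the gut genes none of 5 called in that comparison (limma, 3 and 0 at an unadjusted p under 0.05). Of all genes tested, 7.51% were called higher there and 4.85% lower, and nothing is read from these small counts. Yolk and eggshell genes, which belong to females, were low, with 3 of 5 in the table and sums of 11.2 to 66.4. The sum of the gut genes had an r of -0.65 with CG17298, -0.61 with CG13606 and -0.56 with CG14565, and -0.50 to -0.45 within groups. Mal-A1 weighs most in that sum, with a mean value of 3294, against 313.0 for Amy-d, the next highest. The sum of the eye genes had an r of -0.60 with CG34166 and -0.47 with CG13962, and 0.08 and 0.02 within groups. The part of tissue composition in the values of the 6 genes was not tested.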

How the data were processed

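Total RNA of whole males was sequenced in 24 samples of 6 groups, of which 22 have values in the deposited table. The authors removed ribosomal reads (SortMeRNA), trimmed (Trimmomatic 0.32), aligned to Release 6 (STAR 2.4.0f1), counted uniquely mapped reads by strand (htseq-count 0.6.1) and normalized them by TMM. The deposited values are therefore a normalized signal per gene, not whole counts. A count test had been planned for whole counts, and limma was used in its place.

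Values were analysed as log2(value + 2) with limma 3.58.1 in R 4.3.3 (mean-variance trend, 1 mean for each of 6 groups, 1 spread over all libraries), for the 11314 genes that reached 10 or more in 3 libraries or more. P-values are two-sided and Benjamini-Hochberg adjusted over these genes, with a threshold of 0.05. The fit was tested on simulated data. F2-25-25 values of C and D were treated as missing where both differed from the average of A and B by a whole number, within 0.001. One read was worth 0.601 to 1.80, so that low values rest on few reads.

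The genes and the lists were chosen with earlier results of these data known. Genes named beside the 6 are, for each, the 3 with the highest Pearson's r over 20 libraries, its neighbours in the table and the 2 most abundant genes of each list. The 3 genes that overlap one of the 6 were added after their values were seen. Protein likeness was not analysed here. The methods call the 4 replicates of a group biological replicates. Symbols were found for 11888 of 12024 identifiers. The remaining steps used Python 3.11.15 with scipy 1.17.1, pandas 2.3.3, numpy 2.4.6 and, for plots, matplotlib 3.10.9.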

Additional observations from a re-analysis of the deposited data

Results flagged for a closer look

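Among 19 combinations of gene and group with at least 4 measured libraries, 1 held a library far from the others. CG13962 had a value of 227.2 in replicate D of F2-18-25, against 5.11 to 33.1 in the other 3 libraries. On the scale of normalized values, the gap to the nearest of them was 0.874 of the range. That is above Dixon's critical value at the 95% level for 4 libraries. Chance puts about 1 in 20 such groups above it if values spread normally. As log2(value + 2) these libraries had 7.84 against 2.83 to 5.13, a scale on which Dixon's test was not run. For CG34166, the gap of replicate D of F2-18-25 was 0.818 of the range of normalized values, just below the critical value.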

How the results depend on the processing

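The comparison of F2-25-18 with F2-18-25 gave 1399 genes, and between 221 (without F2-25-18 replicate D) and 1493 when 1 library was left out, well below the full count (221 to 865) without any 1 of the 6 libraries other than F2-18-25 replicate D. It gave 2257 genes from the 7 libraries alone, 2298 from the F2 libraries, 2538 with array weights and 910 with the replicate block. Scaling to equal library totals moved the median log2 difference of all genes by -0.13 and the calls to 508 higher and 1568 lower, in place of 850 and 549, but ended no call of the 6 genes. In 3 pairs of same-lettered libraries the deviations had a mean r of 0.02 (lowest -0.01), against -0.01 in 6 pairs of other letters. So few pairs cannot decide whether the letters pair the samples.

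CG13606 kept its call under all 12 settings other than leaving out a library, with log2 differences of -1.21 to -1.05, and CG34166 did so too. Leaving out 1 library gave -1.22 to -0.90 for CG13606, whose call was lost without F2-25-18 replicate A (adjusted p = 0.0750) or D (0.0684), 1.53 to 2.74 for CG34166 and 1.40 to 3.07 for CG13962. Adjusted p-values over all alternatives were 0.00110 to 0.0750, 2.34e-05 to 0.0731 and 1.05e-04 to 0.112 for these 3 genes. CG34166 lost its call without any 1 library of F2-25-18 or without replicate B or C of F2-18-25. CG13962 lost its call without any 1 of the 6 libraries other than F2-18-25 replicate D. It also lost it with the 7 libraries alone (2.17, adjusted p = 0.0583), without the trend (2.17, adjusted p = 0.0634) and with the replicate block (2.13, adjusted p = 0.0616). CG17298 passed with the 7 libraries alone (-0.72, adjusted p = 0.0231) and had -0.88 to -0.53 when 1 library was left out. CG34205 had -0.45 to 0.027, its sign changing without F2-25-18 replicate D, and CG14565 had 0.10 to 0.36. The cause of these changes was not tested.

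In F1 the log2 difference of CG34205 was 3.21 with a pseudocount of 0.5 and 2.03 with 8, and in F2 that of CG13962 was 3.61 with 8, the direct effect of the pseudocount on low values. All other differences of the 6 genes between cold and control groups moved by less than the spread between replicates, with the replicate block among the settings. Of 15 correlations, 6 within groups and 1 as Spearman's rho lay outside the interval of the value over libraries. Depth limits CG34205 most, with 2 reads in 1 library.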
